A study of Arabidopsis thaliana with 6 samples.

Results

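The chitinase family is represented here by 10 loci of *Arabidopsis thaliana*, taken by their locus identifiers from the 33602 genes of the count table. They are the neighbouring chitinase genes AT2G43570, AT2G43580 and AT2G43590 of chromosome 2, the basic chitinase *HCHIB* (AT3G12500), *EP3* (AT3G54420, also called *CHIV*), *ChiC* (AT4G19810), *CHIA* (AT5G24090), AT4G01700 and the chitinase-like genes *CTL1* (AT1G05850, *POM1* in the annotation) and *CTL2* (AT3G16920). A gene with a mean under 10 counts over the libraries is given as not measured, which left 8 genes. mRNA was sequenced from leaves 3 and 4 at 16 DAS (days after sowing) in 3 biological replicates of *rse1-1*, an EMS mutant with a premature stop codon in the putative glycosyltransferase gene *RSE1*, and in 3 of its WT, the accession Landsberg (L*er*). Plants of both genotypes grew in soil at 22°C with 16 h of light and 8 h of dark, and no treatment is named. The sampled leaves showed no visible yellowing in either genotype. Only this one allele was analysed here, and the number of plants behind each replicate is not given in the sources used here.

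Chitinases cleave chitin, the polymer of N-acetylglucosamine that stiffens fungal cell walls and insect cuticles. Plants build no structural chitin, and their chitinases are best known as defense proteins that attack fungal walls and release fragments that the plant itself perceives. The enzymes fall into the unrelated glycoside hydrolase families GH18 (*ChiC* and *CHIA* here) and GH19. *CTL1* and *CTL2* have the GH19 fold but are known for roles in cellulose deposition, *CTL1* in primary and *CTL2* in secondary cell walls.

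The libraries of *rse1-1* held 10360028 to 15244500 counts on genes and those of WT 9960144 to 11626752. *RSE1* (AT5G22070) had 290, 219 and 264 counts in *rse1-1* and 563, 552 and 667 in WT, which checks the labels only in part, since gene counts do not show the mutated base. Of 10 photosynthesis genes that mark leaves, 8 were tested. All 8 were called lower in *rse1-1* (edgeR, adjusted p under 0.05), where 38.3% of all genes tested were. Their log2 fold changes ran from -0.95 to -0.35. The 10 genes summed to 10920 to 13377 CPM in *rse1-1*, against 19800 to 22102 CPM in WT (CPM, counts scaled to 1000000 counts on genes, with TMM factors). Of these markers, *CAB1* had no count and *LHCA4* a mean of 0.5 counts. The 3 root, 4 flower and 3 seed markers summed to at most 1.89, 0.195 and 9.80 CPM in *rse1-1* and to at most 0.861, 0.0861 and 14.3 CPM in WT. The root sum came almost wholly from *PYK10* (AT3G09260), with 28, 18 and 21 counts in *rse1-1* and 2, 0 and 10 in WT. Their part in the results below was not tested.

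The share of ubiquitous genes with few counts varied with the position in the genome. Genes of ribosomal proteins, needed in all cells, serve as a yardstick. Within 2 Mb of *CTL1*, 0 of 13 such genes had a mean under 10 counts, and within 2 Mb of AT4G01700 0 of 4. Near *CTL2* and *HCHIB* there were 1 of 16 and 3 of 21. The counts were 5 of 16 near *CHIA*, 5 of 9 near *ChiC*, 12 of 18 near *EP3* and 12 of 17 near the chromosome 2 genes. Of the 12 low genes near the chromosome 2 members, the next locus had a mean of at least 100 counts for 7 on the side of higher coordinates and for 6 on the side of lower coordinates. Over the whole genome, 10 of 78 such genes that start within 5 Mb of a chromosome's first base were low, against 124 of 265 elsewhere. The values of *CTL1*, *CTL2*, *HCHIB* and AT4G01700 thus stand in regions where few such genes were low, for AT4G01700 by only 4 such genes. A small share of low genes does not by itself show that the reads of a member are its own. The other members, and all other genes named above or further on that start past 5 Mb, are less certain. For these, gene counts alone cannot show whether the reads came from that gene or from a neighbour. Exact copies are another matter: of all windows of 75 bases, the read length, in the members' longest transcripts of TAIR10.1, 0 had an exact match elsewhere in that genome. This search cannot show near-identical copies, since matches with mismatches were not searched. Windows across exon junctions were compared with unspliced sequence, and the reads come from L*er*.

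**Figure D1:**
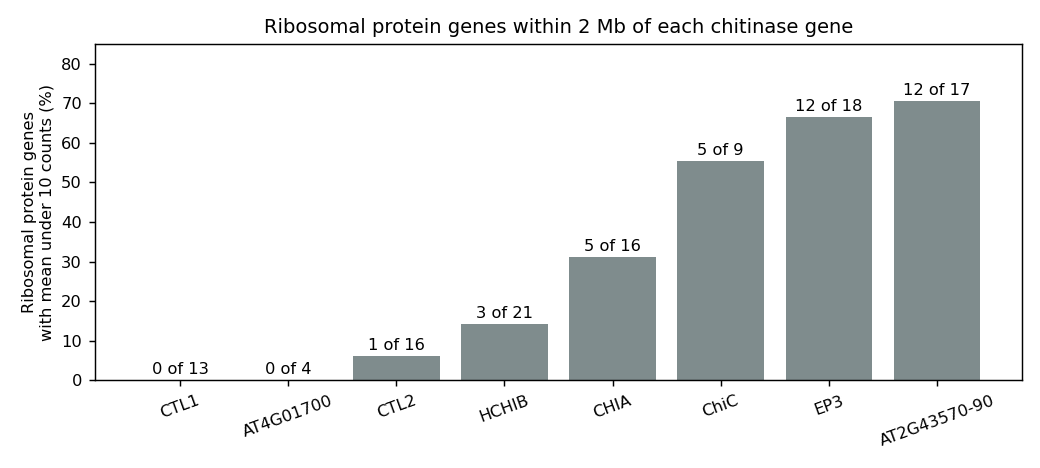
Ribosomal protein genes within 2 Mb of each chitinase gene: the bars give the percent with a mean under 10 counts over the 6 libraries, and the numbers above them the low genes of all such genes. The share runs from 0 of 13 near *CTL1* to 12 of 17 near the chromosome 2 genes AT2G43570, AT2G43580 and AT2G43590.

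The sequences before the annotated starts are shown for neighbours and family members whose counts, given further on, moved in different directions. They are read from TAIR10.1, a Col-0 genome whose sequence can differ from L*er*, and each is the 250 bases before the annotated gene start. Capitals mark the W-box core TTGAC on either strand (GTCAA on the other), the motif that WRKY factors bind. AT2G43570 (chr2:18077518-18077767, minus strand) and AT2G43580 (chr2:18080095-18080344, minus strand) are the neighbours, *HCHIB* (chr3:3963985-3964234, minus strand) and AT4G01700 (chr4:733511-733760, minus strand) are the higher genes near chromosome starts, and *CTL1* (chr1:1768838-1769087, minus strand) is a lower gene.
AT2G43570: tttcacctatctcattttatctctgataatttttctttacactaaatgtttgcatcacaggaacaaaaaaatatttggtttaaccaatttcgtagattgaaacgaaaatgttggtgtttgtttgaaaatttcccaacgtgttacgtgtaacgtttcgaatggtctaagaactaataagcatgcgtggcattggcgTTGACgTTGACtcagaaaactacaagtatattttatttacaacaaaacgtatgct
AT2G43580: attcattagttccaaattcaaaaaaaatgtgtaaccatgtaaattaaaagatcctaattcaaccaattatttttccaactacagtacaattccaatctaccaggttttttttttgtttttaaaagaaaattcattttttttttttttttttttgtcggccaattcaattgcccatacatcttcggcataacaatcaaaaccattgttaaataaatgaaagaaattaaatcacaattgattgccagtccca
HCHIB: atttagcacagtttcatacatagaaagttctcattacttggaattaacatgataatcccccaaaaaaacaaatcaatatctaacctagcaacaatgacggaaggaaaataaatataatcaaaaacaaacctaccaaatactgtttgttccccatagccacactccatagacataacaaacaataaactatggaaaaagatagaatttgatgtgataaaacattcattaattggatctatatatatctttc
AT4G01700: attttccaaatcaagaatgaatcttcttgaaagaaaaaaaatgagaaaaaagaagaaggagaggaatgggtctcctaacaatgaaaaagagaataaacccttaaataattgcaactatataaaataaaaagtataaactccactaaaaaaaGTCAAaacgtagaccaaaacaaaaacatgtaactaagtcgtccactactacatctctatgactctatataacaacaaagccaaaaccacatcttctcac
CTL1: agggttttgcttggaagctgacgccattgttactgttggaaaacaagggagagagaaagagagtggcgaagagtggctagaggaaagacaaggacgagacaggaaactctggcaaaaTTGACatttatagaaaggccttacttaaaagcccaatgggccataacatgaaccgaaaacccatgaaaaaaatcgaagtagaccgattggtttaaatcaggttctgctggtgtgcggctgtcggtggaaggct

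AT2G43570 held 2 W-box cores, one of which overlaps a TGACG motif (CGTCA on the other strand), the motif of TGA factors. AT4G01700 and *CTL1* held 1 W-box core each, as did *ChiC*, *EP3* and AT2G43590. AT2G43580, *HCHIB*, *CHIA* and *CTL2* held 0 in these windows. TGACG was found once in AT2G43570, *HCHIB* and *CTL1*. The windows of *HCHIB* and *CTL1* overlap genes annotated on the other strand, AT3G12502 and AT1G05860, and their TGACG lies inside these genes. The GCC box, GCCGCC on either strand, a motif of ethylene response factors, was found in none of the 10 windows and overlaps neither of the others. Of 27437 windows of the same length before protein-coding genes, 44.9% held TTGAC, 18.6% TGACG and 1.87% GCCGCC.

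Of the 8 measured members, 7 passed the threshold of 0.05 on edgeR's adjusted p-value (quasi-likelihood test). They were 4 higher genes in *rse1-1* (AT2G43580, *HCHIB*, *ChiC* and AT4G01700) and 3 lower genes (AT2G43570, *CTL1* and *CTL2*), while *CHIA* was not called. *HCHIB* and *ChiC* had at most 3 counts in any WT library and were measured and tested through *rse1-1* alone. They could thus only be called higher, and they enter the counts and the median given below. With at least 10 counts required in every library, 2 members were called higher and 3 lower. Over all 16294 genes tested, 77.0% passed this threshold, 38.8% as higher and 38.3% as lower genes, so that 7 of 8 is close to the background. With upper quartile scaling in place of TMM, the calls over all genes split into 5112 higher and 7633 lower, against 6314 and 6235. The *rse1-1* libraries lay entirely above or below the WT libraries for the same 7 genes and for 79.5% of all genes tested. The sizes of the changes ranged widely. The median log2 fold change was 1.10 over the 8 members, with a range of -1.30 to 8.56, and -0.0086 over all genes tested. Of the windows shown or searched above, 2 of the 4 higher and 2 of the 3 lower members held the W-box core. In leaf RNA, a change per cell and a change in the number of cells of a type cannot be told apart.

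**Figure D2:**
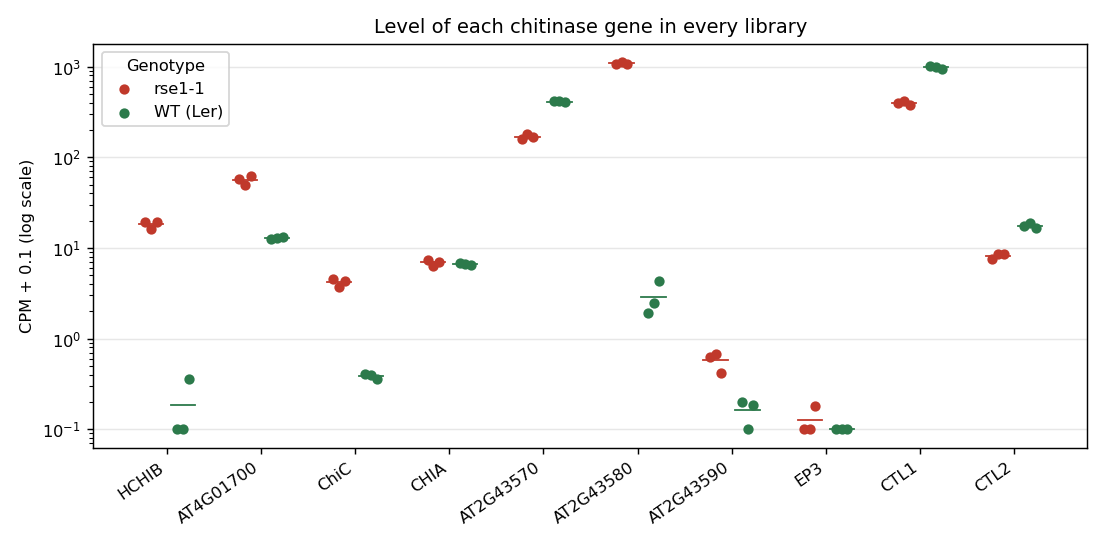
Level of each of the 10 chitinase genes in every library, as CPM plus 0.1 on a log axis, with *rse1-1* (red) left of WT (green) for each gene. Points are libraries and short lines group means. The genotypes separate for 7 measured genes, overlap for *CHIA*, and *EP3* stays at 0 or 1 count.

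**Figure D3:**
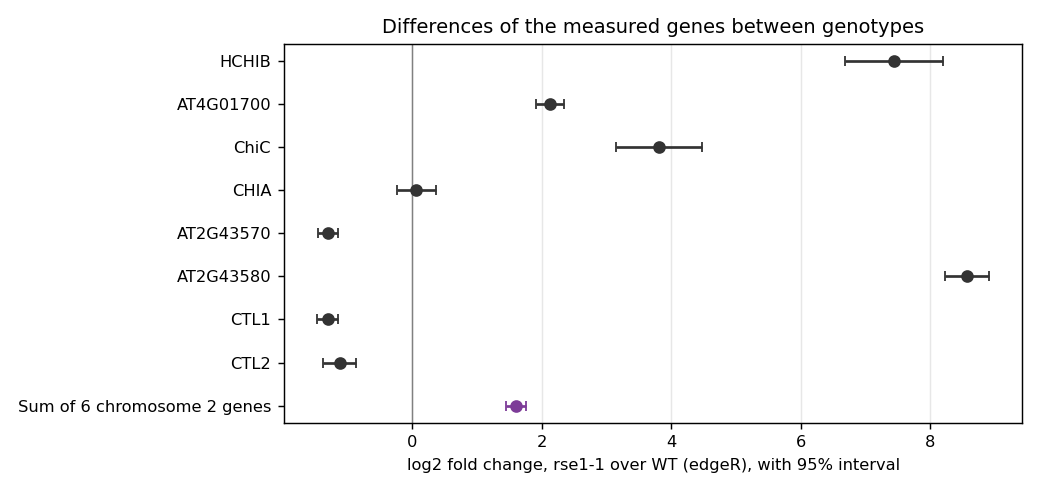
Log2 fold change of *rse1-1* over WT from edgeR for the 8 measured genes and for the sum of 6 neighbouring genes of chromosome 2, with 95% intervals. AT2G43580 (8.56) and *HCHIB* (7.44) lie far to the right, while AT2G43570, *CTL1* and *CTL2* lie between -1.30 and -1.12.

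*HCHIB*, the basic class I chitinase also known as *PR3*, was close to absent in WT leaves and present in every mutant library. It had 299, 165 and 241 counts in *rse1-1*, against 0, 0 and 3 in WT. All WT counts came from replicate 3, and the genotypes did not overlap. The level was 18.2 ± 1.94 CPM in *rse1-1* and 0.0861 ± 0.149 CPM in WT (SD, n = 3). The pooled counts gave a ratio of 194, with an exact 95% counting interval of 66.2 to 945. The fitted log2 fold change was 7.44 (SE 0.351, edgeR adjusted p = 7.31e-11). Leaving out WT replicate 3 gave 10.74, a fitted value that is no bound. Against the limit of 3 counts that a count of 0 allows in each of the other 2 WT libraries, the mean of *HCHIB* in *rse1-1* was at least 60.7-fold higher. This bound covers counting error in those 2 WT libraries only. It leaves out WT replicate 3 and the spread between replicates. The locus lies at chr3:3962136-3963984 on the minus strand of TAIR10.1 in 2 exon blocks. An overlapping noncoding gene on the other strand, AT3G12502, had 42, 15 and 34 counts in *rse1-1* and 0, 0 and 0 in WT. The libraries kept the strand, but the strand setting of the counting is not stated. Reads of this overlapping pair may thus have been left uncounted or listed under the other gene. Its part in the level of *HCHIB* was not tested.

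AT4G01700, another GH19 gene, was already expressed in WT and higher in the mutant. It had 57.0, 49.6 and 61.6 CPM in the *rse1-1* libraries, against 12.6, 12.8 and 13.1 CPM in the WT libraries. The coefficient of variation was 10.8% in the mutant and 2.03% in WT, and the mutant libraries lay far above all WT libraries. At WT counts of 124, 130 and 152, counting error alone is larger than the WT value. A difference in spread between the genotypes was not tested. The log2 fold change was 2.13 (SE 0.101, edgeR adjusted p = 7.74e-11), and ranged over 2.07 to 2.22 when single libraries were dropped. The gene lies at chr4:732313-733510 on the minus strand. It overlaps the end of *PPOX* (AT4G01690), a plus strand gene of porphyrin synthesis, which had 4665, 3452 and 4108 counts in *rse1-1* and 5426, 5812 and 6691 in WT.

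*ChiC*, a class V chitinase of family GH18, was low in both genotypes and higher in *rse1-1*. It had 69, 37 and 53 counts in *rse1-1*, against 3, 3 and 3 in WT. The WT counts were too few to show a spread between libraries, and the lowest mutant library lay well above them. The pooled ratio was 14.6, with an exact 95% counting interval of 7.50 to 32.5, and the log2 fold change was 3.81 (SE 0.307, edgeR adjusted p = 2.79e-08). Its neighbour AT4G19820, also a GH18 gene, had 4, 2 and 3 counts in *rse1-1* and 7, 6 and 10 in WT, too few to be tested. Around *ChiC*, 5 of 9 ribosomal protein genes were low, as given above.

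*CHIA*, a class III chitinase of family GH18 and acidic in nature, showed no detectable difference. The libraries of *rse1-1* had 7.28, 6.29 and 6.85 CPM and those of WT 6.69, 6.49 and 6.46 CPM. The mutant libraries spanned the whole WT range. The log2 fold change was 0.06, with a 95% interval of -0.24 to 0.37 (adjusted p = 0.686 from edgeR). With upper quartile scaling the value was -0.13, also not called.

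*EP3* and AT2G43590 were not measured. *EP3*, a class IV chitinase named after a carrot enzyme of somatic embryos, had 0, 0 and 1 counts in *rse1-1* and 0, 0 and 0 in WT, where 3 counts correspond to 0.258 to 0.304 CPM. These limits cover counting error only. *EP3* overlaps *SRS6* and AT3G54440 in the annotation, and 12 of 18 ribosomal protein genes around it were low. AT2G43590 had 8, 6 and 4 counts in *rse1-1* and 1, 0 and 1 in WT.

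The neighbouring chitinase genes of chromosome 2 lie on the minus strand, AT2G43570 at chr2:18076166-18077517 and AT2G43580 at chr2:18078649-18080094, each in 2 exon blocks. Their counts moved in opposite directions. AT2G43580 had 16436, 11514 and 13570 counts in *rse1-1*, against 18, 24 and 49 in WT. Its level was 1088 ± 23.5 CPM in *rse1-1* and 2.80 ± 1.26 CPM in WT (SD, n = 3). The coefficient of variation was 2.16% in the mutant and 44.8% in WT, where counts were few. The log2 fold change was 8.56 (SE 0.159, edgeR adjusted p = 7.69e-15) and rose to 9.01 when WT replicate 3, the highest WT library, was dropped.

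AT2G43570, named *CHI* in the annotation, had 157, 179 and 168 CPM in *rse1-1*, against 413, 413 and 410 CPM in WT. The mutant libraries lay below WT, whose libraries had a coefficient of variation of 0.473%. At 4076, 4195 and 4757 WT counts, counting error alone is larger than this, so that it does not measure the spread between replicates. The log2 fold change was -1.29 (SE 0.0715, edgeR adjusted p = 4.11e-10). Within the 6 neighbouring GH19 genes from AT2G43570 to AT2G43620, AT2G43580 held 86.1% to 87.1% of the counts in *rse1-1* and 0.439% to 1.02% in WT. AT2G43600 and AT2G43620 had no count in any library, and AT2G43610 had 1 count in WT replicate 1.

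When the counts of these 6 genes were added up and tested as 1 feature, the sum rose in *rse1-1*. It was 1256 ± 34.4 CPM in *rse1-1* and 415 ± 0.718 CPM in WT (SD, n = 3). Its log2 fold change was 1.60 (SE 0.0719, 95% interval 1.45 to 1.75, edgeR adjusted p = 4.33e-11). The sum does not depend on how reads fell among these genes, but it does depend on reads from outside: AT2G43560, next to AT2G43570 on the side of lower coordinates, had 141, 92 and 129 counts in *rse1-1* and 124, 102 and 118 in WT. Around these genes 12 of 17 ribosomal protein genes were low, against 3 of 21 around *HCHIB* and 0 of 4 around AT4G01700, and the part of this in the opposite directions was not tested.

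**Figure D4:**
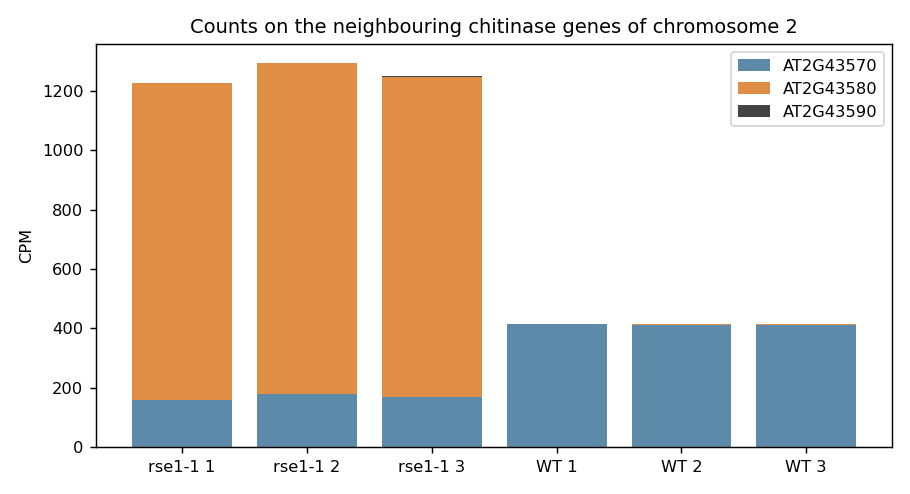
Stacked levels (CPM) of AT2G43570, AT2G43580 and AT2G43590 in each library, with the *rse1-1* libraries left of the WT libraries. AT2G43580 makes up most of each mutant bar, AT2G43570 nearly all of each WT bar, and AT2G43590 is too low to be seen clearly.

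*CTL1* and *CTL2* both fell in *rse1-1*. *CTL1* had 398, 419 and 379 CPM in *rse1-1*, against 1010, 989 and 951 CPM in WT. The highest mutant library held less than the lowest WT library by a wide margin. The log2 fold change was -1.30 (SE 0.0740, 95% interval -1.46 to -1.14, edgeR adjusted p = 5.60e-10). *CTL1* lies at chr1:1766503-1768837 on the minus strand in 4 exon blocks. On either side of it, AT1G05840 had 1176, 729 and 920 counts in *rse1-1* and 381, 347 and 381 in WT, and AT1G05860 had 317, 188 and 254 in *rse1-1* and 282, 295 and 313 in WT.

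*CTL2* was expressed far less, with 7.41, 8.51 and 8.44 CPM in *rse1-1* and 17.2, 18.8 and 16.6 CPM in WT. The genotypes did not overlap. The log2 fold change was -1.12 (SE 0.120, 95% interval -1.37 to -0.86, edgeR adjusted p = 6.59e-07). The intervals of *CTL1* and *CTL2* overlapped, and the difference between their changes was not tested. *CTL2* lies at chr3:5776264-5778052 on the minus strand in 3 exon blocks. *AAE7* (AT3G16910), beside it, had 1135, 713 and 949 counts in *rse1-1* and 430, 399 and 484 in WT.

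The order of the members by the counts listed under them changed with the genotype. Levels are compared here as RPKM, the CPM per kilobase of annotated exon. In *rse1-1*, AT2G43580 came first with 1039 ± 22.5 RPKM, followed by *CTL1* (209 ± 10.4), AT2G43570 (148 ± 9.67), AT4G01700 (58.1 ± 6.27) and *HCHIB* (13.3 ± 1.41). *CHIA* (5.37 ± 0.392 RPKM) and *CTL2* (5.04 ± 0.383 RPKM) overlapped in their libraries, and *ChiC* came last with 2.06 ± 0.234 RPKM (SD, n = 3 throughout). In WT, *CTL1* came first with 516 ± 15.7 RPKM, followed by AT2G43570 (362 ± 1.71), AT4G01700 (13.3 ± 0.270), *CTL2* (10.9 ± 0.695), *CHIA* (5.16 ± 0.0985) and then by AT2G43580 (2.68, from 1.74 to 4.03 over its libraries). *ChiC* (0.144 ± 0.0122 RPKM) and *HCHIB* (0.0627 ± 0.109 RPKM) overlapped at the low end in WT. By these counts AT2G43580 stood first of 8 in the mutant and in the sixth place in WT. The reads under AT2G43580, AT2G43570, *CHIA* and *ChiC* cannot be credited to these genes for certain, as given above. Their levels and places hold for the listed counts only. Together, the 10 members took 1748 ± 41.9 CPM in *rse1-1* and 1435 ± 30.8 CPM in WT (SD, n = 3).

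Other genes of both hydrolase families were mostly at or near 0 counts. Of 6 further GH19 genes, 1 was tested: AT1G02360 had 24.7, 20.9 and 30.5 CPM in *rse1-1*, against 3.14, 1.08 and 0.861 CPM in WT. The genotypes did not overlap, although WT replicate 1 stood above the other WT libraries. The fitted log2 fold change of 3.94 (SE 0.272, edgeR adjusted p = 4.88e-09) became 4.71 when that library was dropped. It lies near the start of chromosome 1, in its first 5 Mb. Of the other 5 GH19 genes, 4 had no count. Of 8 further GH18 genes beside *ChiC*, 0 had enough counts to be tested, and 6 had no count in any library. All 8 lie on chromosome 4 beside *ChiC*, where low counts were common.

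Most of the tested genes listed for chitin perception rose. Chitin fragments are bound by LysM receptors such as *LYK5* and *CERK1* at the plasma membrane. Of 10 genes listed, 8 were tested, of which 6 rose and 2 fell, with a median log2 fold change of 1.03, where 38.8% of all tested genes were called higher and 38.3% lower. With upper quartile scaling, 5 were called higher and 2 lower, and AT5G18610 (*PBL27*) was no longer called (log2 fold change 0.23, edgeR adjusted p = 0.0531, against 0.42 with TMM). *LYK5* (AT2G33580) had 50.1, 52.8 and 58.2 CPM in *rse1-1*, against 5.78, 3.34 and 3.96 CPM in WT (log2 fold change 3.63, adjusted p = 8.79e-12 from edgeR). *LYM1* (AT1G21880), a LysM protein known for binding bacterial peptidoglycan, fell to 9.43 CPM on average, against 44.4 CPM in WT (log2 fold change -2.25, adjusted p = 6.09e-11 from edgeR). *LYM2* (AT2G17120), a LysM protein of plasmodesmata, had a log2 fold change of 1.63 (adjusted p = 1.09e-09 from edgeR). The other gene that fell was *LYK3* (AT1G51940, log2 fold change -1.06). *CERK1* (1.32), *LYK4* (0.75) and *BIK1* (2.37) were among the 6 that rose. *LYM3* had no count and *LYK2* too few. The 8 tested genes all start more than 5 Mb into their chromosomes, so that their values, too, cannot be credited to them for certain.

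Of 10 genes of pathogenesis-related proteins, 5 were tested and all 5 rose, with a median log2 fold change of 6.34, where 38.8% of all tested genes were called higher. *PR1* and *OSM34* entered the test through their counts in *rse1-1*, so that the filter left them little room to come out lower. The median includes both. With at least 10 counts required in every library, neither was tested and 3 genes were called, all higher. *PR4* (AT3G04720), a chitin-binding hevein-like protein near the start of chromosome 3, had 5254, 3456 and 4392 counts in *rse1-1*, against 186, 102 and 102 in WT. The smallest change was that of *PR5* (AT1G75040), with 92, 91 and 123 counts in *rse1-1* and 41, 59 and 43 in WT (log2 fold change 0.84, edgeR adjusted p = 0.00253). *BG1* (AT3G57270), a glucanase gene, had 52980, 42003 and 46093 counts in *rse1-1*, against 575, 348 and 533 in WT, while *BGL2* (AT3G57260), the adjacent *PR2* gene, had 0 in all 6 libraries. Both start past 5 Mb, as do *PR1*, *PR5* and *OSM34*, and whether counts listed under *BG1* came from its neighbour was not tested. *PR1* (AT2G14610) had 5601, 4115 and 5400 counts in *rse1-1*, against 7, 17 and 59 in WT. *OSM34* (AT4G11650), an osmotin, had 3883, 1590 and 2848 counts in *rse1-1* and 0, 0 and 6 in WT, a pooled ratio of 1147 with an exact 95% counting interval of 527 to 3126. Without WT replicate 3, the log2 fold change of *PR1* was 8.36 in place of 7.25, and *OSM34* had no WT count. The 5 others of this list, *BGL2*, *BG3*, *PDF1.2*, *PDF1.2b* and *THI2.1*, had means under 10 counts.

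The tested genes listed for cellulose synthesis, the process that *CTL1* and *CTL2* are tied to, also had lower counts in *rse1-1*. Of 10 genes of primary walls, 7 were tested and all 7 fell, with a median log2 fold change of -0.88, where 38.3% of all tested genes were called lower. Of the 3 others, *COB* (AT5G60920) and *CC1* (AT1G45688) had no count in any library and *CESA9* (AT2G21770) had a mean of 6.5 counts. *CESA5* (AT5G09870) had 145, 149 and 135 CPM in *rse1-1*, against 259, 285 and 290 CPM in WT (log2 fold change -0.96, adjusted p = 1.46e-08 from edgeR). *CESA3* (AT5G05170, *CEV1* in the annotation) and *CESA6* (AT5G64740) had log2 fold changes of -0.88 and -1.03. *KOR1* (AT5G49720, *GH9A1*) was the least certain of these 7: its log2 fold change was -0.63 (edgeR adjusted p = 0.0254), and -0.43 without WT replicate 1, and its call was lost when WT replicate 1, *rse1-1* replicate 2 or *rse1-1* replicate 3 was dropped (highest edgeR adjusted p = 0.140) and with DESeq2 (adjusted p = 0.115).

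All 4 genes of secondary walls were tested and fell, with a median log2 fold change of -1.47, beside the same 38.3% of all tested genes. *CESA4* (AT5G44030) had 133, 152 and 170 CPM in *rse1-1*, against 615, 630 and 624 CPM in WT (log2 fold change -2.04, adjusted p = 2.60e-11 from edgeR). *CESA7* (AT5G17420, *IRX3*) and *CESA8* (AT4G18780, *IRX1*) had log2 fold changes of -1.57 and -1.36, at far lower levels than *CESA4*. Their means were 10.6 and 9.65 CPM in *rse1-1*, against 31.3 and 24.6 CPM in WT. *CTL1*, at -1.30, fell more than each of the 7 tested primary wall genes in fitted size, and *CTL2*, at -1.12, less than each of the 4 secondary wall genes. These differences in size were not tested. Of the tested cellulose synthesis genes, only *CESA3* and *CESA5* lie in the first 5 Mb of their chromosome, chromosome 5. All others start past 5 Mb, so that their values cannot be credited to them for certain.

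**Figure D5:**
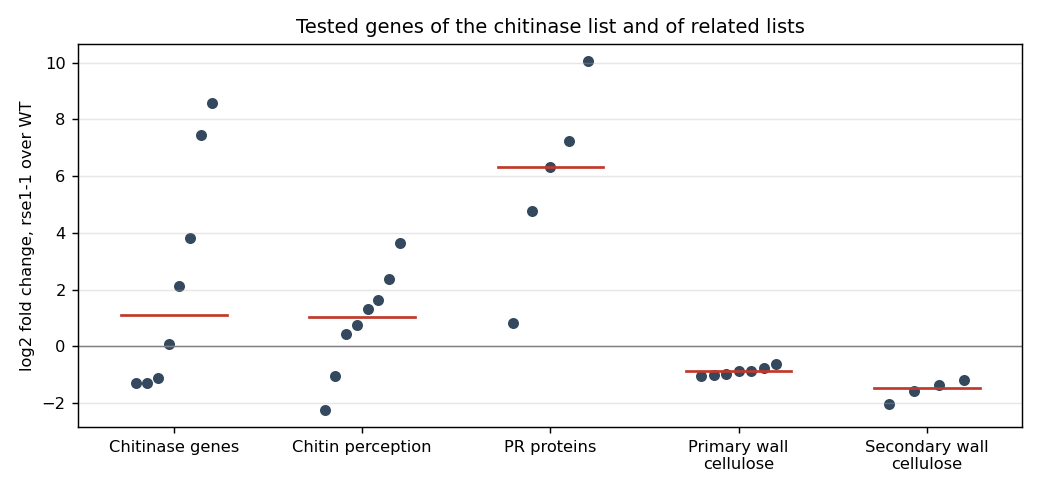
Log2 fold change of *rse1-1* over WT (edgeR) for each tested gene of the chitinase list and of related lists; points are genes and red lines medians. The 8 chitinase genes spread from -1.30 to 8.56, the tested pathogenesis-related (PR) genes lie above 0, and all tested cellulose synthesis genes lie below it.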

How the data were processed

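From stranded poly(A) libraries the authors obtained 75-base single reads. Trimming used Trimmomatic 0.32.3, alignment TopHat 2.0.9 with a L*er*-0 genome rebuilt from Col-0, duplicate removal Picard 1.119, and counting of uniquely mapped reads HTSeq 0.6.1. The deposited table gives raw, whole-number counts for each gene. The submitters' processing notes name the build TAIR10. The strand setting of the counting and the annotation release are not given in the sources used here. Entries naming no gene, 47.0% to 48.7% per library, were left out.

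Counts were tested on the whole table with edgeR 4.0.16 (R 4.3.3): TMM scaling, filterByExpr with a minimum count of 10, genotype alone, the quasi-likelihood test and Benjamini-Hochberg adjustment over 16294 genes. The standard error is the size of the log2 fold change divided by the square root of F. The test was checked on simulated counts with 200 changed genes, raised and lowered equally often. In the data 77.0% of genes tested were called, so that the simulation does not check scaling or calls at that share. Names, exons and sequences came from RefSeq TAIR10.1. RPKM was computed here over all annotated exons, and counting intervals are Clopper-Pearson at 95% for counting error only. Members and lists were chosen with earlier results of these data known. The genes named are all members and up to 3 called genes of each list with the smallest adjusted p-values. Counts are given for some of the 2 loci on each side of a member. These loci, *PR4*, *PR5*, *BGL2*, *PBL27*, *PYK10*, *KOR1*, *LYK3*, *LYK4*, *CERK1*, *BIK1*, *COB*, *CC1* and *CESA9* were named after their values were seen. Alternatives were DESeq2 1.42.0, limma-voom 3.58.1, other scalings and filters, a replicate block, a threshold of 0.01 and each library left out. P-values weigh the difference between genotypes against the spread between replicates, whose plants are not described further.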

Additional observations from a re-analysis of the deposited data

How the results depend on the processing

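The 7 calls among the members kept their direction in all alternatives that could test them, and *CHIA* was called in none. *HCHIB* and *ChiC* entered the test through *rse1-1* alone, so that their kept direction adds no support. With at least 10 counts in every library, 5 members were called, because *HCHIB* and *ChiC* were no longer tested, and 3 genes of pathogenesis-related proteins in place of 5. An alternative chosen after seeing the data kept genes in the first 5 Mb only: 3 members (*HCHIB*, AT4G01700 and *CTL1*) and 3298 of 4137 tested genes were called. Without a filter on low counts, 1 further GH18 gene was called in place of 0. Under upper quartile scaling, all tested genes had a median of -0.20, the called genes split into 5112 higher and 7633 lower, against 6314 and 6235 with TMM, and *CHIA* stood at -0.13. With each library left out in turn, 11911 to 12546 genes were called and the chromosome 2 sum stayed between 1.59 and 1.63. The replicate numbers did not pair the samples: correlations of deviations between same-numbered libraries were 0.04, 0.08 and -0.07. With the replicate numbers as a block, 12546 genes and 7 members were called and the chromosome 2 sum was 1.60. *PBL27* lost its call under upper quartile scaling and *KOR1* with DESeq2 and without each of 3 libraries. *EP3* and AT2G43590 had too few counts to be tested.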

Other observations

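Beside *HCHIB*, *CYSB* (AT3G12490) had 2756, 1817 and 2500 counts in *rse1-1* and 1727, 1490 and 1741 in WT. Beyond *CHIA*, its neighbour AT5G24080 had 13, 11 and 8 counts in *rse1-1* and 0, 0 and 1 in WT, too few to be tested.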
